A study of Mus musculus with 55 samples.

Results

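The genes described here take long-chain fatty acids into heart cells, carry them in the cytosol and activate them to acyl-CoA. They were chosen by name: Cd36, Slc27a1, Fabp3, Fabp4, Acsl1, Acsl3, Acsl4, Acsl5 and Acsl6. Of these 9 genes, 8 were matched to a probe set of their own and 7 were bright enough to be tested, among 18193 genes with a probe set and 8237 tested. A gene was tested if its signal exceeded 20 on the linear scale (4.32 on the log2 scale) in at least 3 arrays, and it was read from its probe set with the highest mean over all arrays. No probe set was matched to Acsl1, which was not analysed here. Acsl3 did not reach the minimum on any array.

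The heart burns mainly fatty acids. CD36, a membrane glycoprotein, and the transport protein FATP1, made from Slc27a1, help them across the cell membrane, and the small fatty acid binding proteins carry them through the cytosol. FABP3 is the form of heart and skeletal muscle, whereas FABP4 is known from adipocytes, macrophages and capillary endothelium. Acyl-CoA synthetases then join the fatty acid to coenzyme A, which traps it in the cell and prepares it for oxidation or storage. PPARα, a nuclear receptor that fatty acids and the synthetic agonist Wy14643 activate, switches on many genes of fatty acid uptake and oxidation. It binds with RXR to a direct repeat of the hexamer AGGTCA.

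The hearts came from male Sv129 mice, wild type (129S1/SvImJ) or PPARα-/- (129S4/SvJae), so the genotypes also differed in substrain and these cannot be told apart. The labels give their age both as 9 to 12 weeks and as 2 to 6 months. All mice ate a modified AIN76A diet with olive oil in place of corn oil for 2 weeks, were fasted for 4 h and received 400 µL by gavage. The gavage was triolein, trilinolein, trilinolenin or tridocosahexaenoin, which are synthetic fats that each carry a single kind of fatty acid (oleic, linoleic, linolenic or docosahexaenoic acid), or Wy14643 at 10 mg/mL in 0.5% carboxymethyl cellulose, or the cellulose alone as control. The sample labels name the control treatment "none", while the protocol names the cellulose. Hearts were taken 6 h later and total RNA was measured on 1 Affymetrix array per sample. The 25 wild-type arrays comprised 3 for the control gavage, 4 each for triolein, trilinolenin and Wy14643, and 5 each for trilinolein and tridocosahexaenoin. The 30 knockout arrays comprised 5 for each of the 6 gavages. The labels do not say that each array is a separate animal, so p-values measure the spread between these samples. A gene is called at an adjusted p under 0.05 in limma, with the Benjamini-Hochberg method over all tested genes.

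The arrays were alike: the correlation of any 2 lay between 0.988 and 0.996, and 29 to 30.2% of probe sets exceeded the minimum. Ppara itself was lower in knockout control hearts by a log2 difference of -0.73 ± 0.13 (SE, adjusted p = 0.000132, limma). All 7 cardiomyocyte markers exceeded the minimum on all 55 arrays. The 55 arrays carried array weights, limma's measure of how closely an array follows its group, of 0.472 to 1.72. The 3 arrays under 0.5 were trilinolenin replicate 5 and tridocosahexaenoin replicates 1 and 5, all from knockout hearts. Among 24 tested PPAR target genes, 18 were called lower and 0 higher in knockout control hearts, led by Plin5 (-3.2), Acot1 (-2.67), Ucp3 (-2.03) and Slc25a20 (-1.71). Of all tested genes 2.06% were called lower and 1.55% higher. The median log2 difference of the targets was -0.829, against 0.00697 over all tested genes. This list was chosen with earlier results of these data known. In wild-type hearts given Wy14643, 3 of the 24 targets were called higher and 0 lower, against 0.0607% of all tested genes called. These were Angptl4 (log2 difference 2.17 ± 0.46, SE, adjusted p = 0.0409, limma), Acot1 (1.93 ± 0.36, adjusted p = 0.0122) and Mlycd (0.78 ± 0.16, adjusted p = 0.0194), while Ucp3 (1.36, adjusted p = 0.0702) and Pdk4 (0.87, adjusted p = 0.219) were not called.

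Promoter windows were read for 8 of the 9 genes, in 13 entries of the RefSeq table (GRCm38.p6), each covering 250 bases before a transcription start and 50 after it. The table has no entry for Fabp4. They were searched on both strands for the hexamer AGGTCA and for a direct repeat, written as 2 copies of AGGNCA with 1 base of any kind between them, which can overlap a match of the hexamer. The direct repeat was found in 0 of the 13 windows, and in 125 of 32851 promoters of 300 bases (0.381%). The hexamer was found in the Cd36 window and in 1 of 3 Acsl6 windows, and in 5340 of all promoters (16.3%). The bases before the start of Fabp3, Cd36 and the first Acsl6 start are printed as examples: Cd36 and Acsl6 are the genes with a hexamer, 1 lower and 1 higher in knockout hearts, and Fabp3, lower in knockout hearts, is a gene without one. Capitals mark the hexamer, which reads TGACCT where it lies on the opposite strand. The Acsl6 stretch stops before the annotated gene, and the Cd36 start lies inside the span of the annotated gene.
Fabp3, chr4:130308488-130308737, strand +: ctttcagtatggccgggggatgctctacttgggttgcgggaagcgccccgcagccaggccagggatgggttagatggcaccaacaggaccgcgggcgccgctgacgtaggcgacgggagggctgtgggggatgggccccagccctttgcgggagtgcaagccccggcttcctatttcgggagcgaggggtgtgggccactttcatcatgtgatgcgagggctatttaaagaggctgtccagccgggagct
Cd36, chr5:17835897-17836146, strand −: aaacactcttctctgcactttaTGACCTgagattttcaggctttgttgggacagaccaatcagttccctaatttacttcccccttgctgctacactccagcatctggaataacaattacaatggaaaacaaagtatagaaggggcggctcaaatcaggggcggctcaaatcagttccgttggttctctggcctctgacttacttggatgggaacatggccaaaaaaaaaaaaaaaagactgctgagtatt
Acsl6, chr11:54303574-54303804, strand +: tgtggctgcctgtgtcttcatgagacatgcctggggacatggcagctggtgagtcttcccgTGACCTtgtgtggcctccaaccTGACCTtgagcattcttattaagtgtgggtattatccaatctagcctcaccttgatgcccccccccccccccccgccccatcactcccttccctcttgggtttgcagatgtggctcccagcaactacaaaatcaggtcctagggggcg
The match in Cd36 begins 228 bases before the start, and those in Acsl6 begin 189 and 167 bases before it. A match is a run of letters, not a measured binding site.

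The first comparison asked how the genes differ between genotypes without fat or agonist. In control hearts 5 of the 7 tested genes were called, 2 higher (Acsl6, Fabp4) and 3 lower (Slc27a1, Cd36, Fabp3) in knockout hearts. Of all tested genes 3.62% were called, 1.55% higher and 2.06% lower. Acsl4 and Acsl5 were not called. The median log2 difference of the 7 genes was -0.0349, beside 0.00697 over all tested genes. All 5 called genes had groups that did not overlap, as did 10.6% of all tested genes.

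Cd36 is on chromosome 5 (17781690 to 17888959). Its log2 signal was 12.71, 12.83 and 12.77 in wild-type control hearts and 12.59, 12.52, 12.52, 12.48 and 12.42 in knockout control hearts. Every knockout value was below every wild-type value. The log2 difference was -0.27 ± 0.06 (SE, adjusted p = 0.00508, limma), a level 1.2-fold lower. Without wild-type control replicate 2 the adjusted p was 0.0646.

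Slc27a1, on chromosome 8 (71568728 to 71587307), was the uptake gene with the larger difference. Wild-type control hearts measured 7.96, 8 and 7.59, and knockout control hearts 7.44, 7.25, 7.14, 6.97 and 7.01. The groups did not overlap, although the lowest wild-type heart was close to the highest knockout heart. The log2 difference was -0.68 ± 0.14 (SE, adjusted p = 0.00089, limma), a level 1.61-fold lower.

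Fabp3, on chromosome 4 (130308738 to 130315463), varied least within groups. Its residual SD of 0.0409 compared with a median of 0.167 over all tested genes. Wild-type control hearts measured 13.65, 13.65 and 13.56, and knockout control hearts 13.37, 13.41, 13.43, 13.32 and 13.34. The log2 difference of -0.25 ± 0.04 (SE, adjusted p = 1.57e-05, limma) is a level 1.19-fold lower, a small change measured with small error.

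Fabp4, on chromosome 3 (10204342 to 10208616), went the other way. Wild-type control hearts measured 13.19, 13.15 and 13.18, and knockout control hearts 13.62, 13.54, 13.53, 13.52 and 13.47. All 5 knockout hearts were higher than all 3 wild-type hearts. The log2 difference was 0.36 ± 0.08 (SE, adjusted p = 0.00219, limma), a level 1.28-fold higher.

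Acsl6, on chromosome 11 (54303805 to 54364756) and known as a synthetase of brain that prefers docosahexaenoic acid, had the largest difference of the 7 genes. Wild-type control hearts measured 5.22, 5.71 and 5.53, and knockout control hearts 6.83, 6.77, 7.21, 6.91 and 6.63. The lowest knockout heart was well above the highest wild-type heart. The log2 difference was 1.38 ± 0.16 (SE, adjusted p = 1.16e-08, limma), a level 2.61-fold higher.

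The remaining tested synthetases, Acsl4 and Acsl5, did not separate the genotypes. Acsl4, which prefers arachidonic acid and lies on chromosome X (142317993 to 142390802), measured 6.93 to 7.29 in wild-type and 6.91 to 7.56 in knockout control hearts. Its log2 difference was 0.13, with a 95% interval of -0.25 to 0.51. Acsl5, on chromosome 19 (55251861 to 55296628), measured 5.7 to 5.99 and 5.39 to 6.09. Its difference was -0.03, with an interval of -0.34 to 0.27. These intervals leave room for changes as large as those of Cd36, Fabp3 or, for Acsl4, Fabp4. Averaged over all 6 gavages the intervals were narrower, -0.13 to 0.15 for Acsl4 and -0.14 to 0.09 for Acsl5. Acsl3, on chromosome 1 (78657825 to 78707743), gave log2 signals of 2.46 to 3.97 over all 55 arrays, below the minimum of 4.32, so no fold is given.

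**Figure D1:**
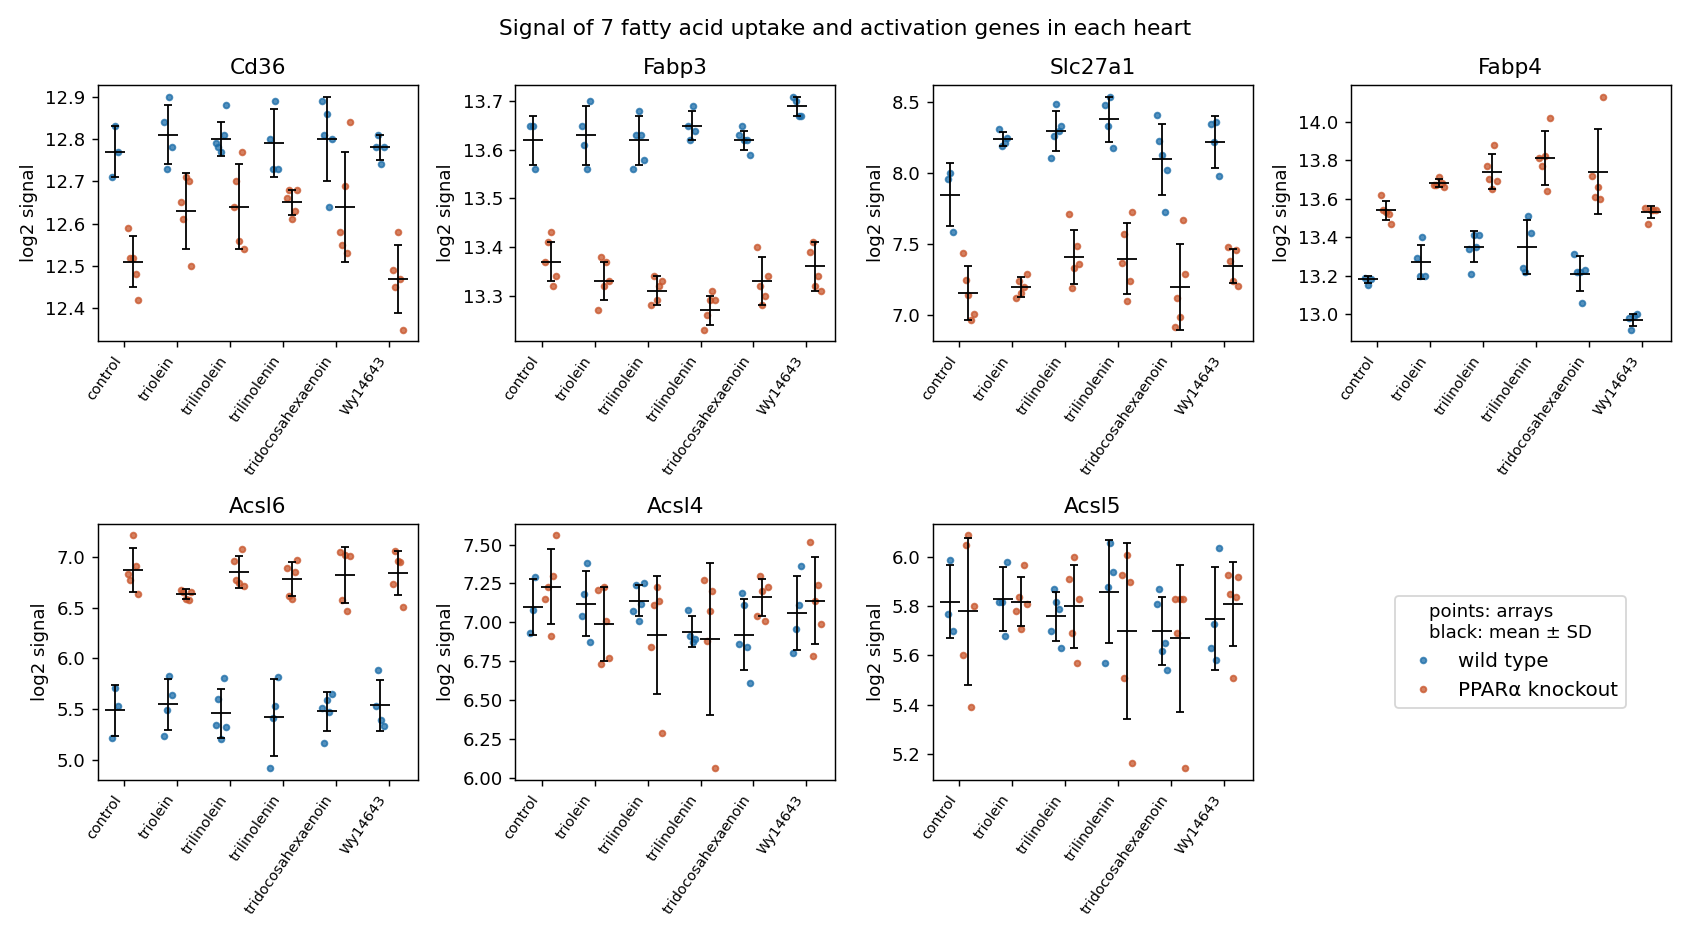
Log2 signal of 7 genes in each heart (points), with the mean and SD of each group in black, for wild-type (blue) and PPARα knockout (orange) hearts under 6 gavages; the vertical axes differ between genes and do not start at 0. Cd36, Fabp3 and Slc27a1 lie lower and Fabp4 and Acsl6 higher in knockout hearts, while Acsl4 and Acsl5 overlap.

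The genotype difference was then followed across all 6 gavages. Averaged over them, the same 5 genes were called in the same directions, and 39% of all tested genes were called, 22.8% higher and 16.1% lower. Within the 5 gavages other than the control, 24 of 35 combinations of gene and gavage were called, against 9.19% of all such combinations over the tested genes. The share of all genes called was 7.93% with triolein, 9.63% with trilinolein, 9.54% with trilinolenin, 9.57% with tridocosahexaenoin and 9.28% with Wy14643. A measure of RNA quality, Actb signal at the 3' end minus the 5' end, was 0.6 to 0.72 in wild-type and 0.73 to 0.84 in knockout triolein hearts. With the other gavages the ranges overlapped, and knockout medians were higher with all but the control (0.81 and 0.79). The part of RNA quality in the genotype differences was not tested.

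For Fabp3 and Acsl6, all 30 knockout arrays lay on one side of all 25 wild-type arrays. Fabp3 ranged from 13.23 to 13.43 in knockout and from 13.56 to 13.71 in wild-type hearts. Acsl6 ranged from 6.47 to 7.21 and from 4.92 to 5.89. Such separation over all arrays was found for 0.996% of tested genes. Averaged over gavages, Fabp3 differed by -0.31 ± 0.01 (SE, adjusted p = 4.33e-23, limma) and Acsl6 by 1.31 ± 0.06 (SE, adjusted p = 1.25e-23), or 2.48-fold.

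Slc27a1 and Fabp4 separated nearly as fully. For Slc27a1, 27 of 30 knockout arrays were below every wild-type array, with medians of 7.25 and 8.23. Its difference was -0.89 ± 0.05 (SE, adjusted p = 1.06e-19, limma), and within gavages it ran from -1.03 with triolein to -0.87 with Wy14643, beside -0.68 in control hearts. For Fabp4, 28 of 30 knockout arrays were above every wild-type array, with medians of 13.66 and 13.22. Its difference was 0.45 ± 0.03 (SE, adjusted p = 5.7e-18, limma) and ran from 0.39 with trilinolein to 0.56 with Wy14643.

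Cd36 had the smallest called difference, -0.2 ± 0.02 (SE, adjusted p = 5.06e-10, limma), and 20 of 30 knockout arrays were below every wild-type array. Under trilinolenin it was not called (log2 difference -0.14, adjusted p = 0.135), and under trilinolein and tridocosahexaenoin the groups overlapped. Its calls within triolein, trilinolein and tridocosahexaenoin had adjusted p-values of 0.0354, 0.0403 and 0.0435. With no brightness filter the adjusted p-values of Cd36 were 0.0917, 0.0987 and 0.105, no longer called. Under Wy14643 the difference was -0.31 ± 0.06 (SE, adjusted p = 9.32e-05, limma).

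The order of the 12 group means showed the same division. For Cd36, Fabp3 and Slc27a1 the 6 knockout means were the lowest, and for Fabp4 and Acsl6 the 6 wild-type means were the lowest. Of the 11 steps between neighbouring means, only the step between genotypes exceeded the residual SD for Fabp3 (0.24 against 0.0409) and Acsl6 (1.07 against 0.227). Slc27a1 had 1 further such step, from wild-type control to wild-type tridocosahexaenoin. Cd36 had 1 further step, from knockout control to knockout triolein. Fabp4 had 2, from wild-type Wy14643 to wild-type control and from knockout control to knockout triolein. Acsl4 and Acsl5 had 0 such steps, and their largest were 0.07 and 0.05.

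**Figure D2:**
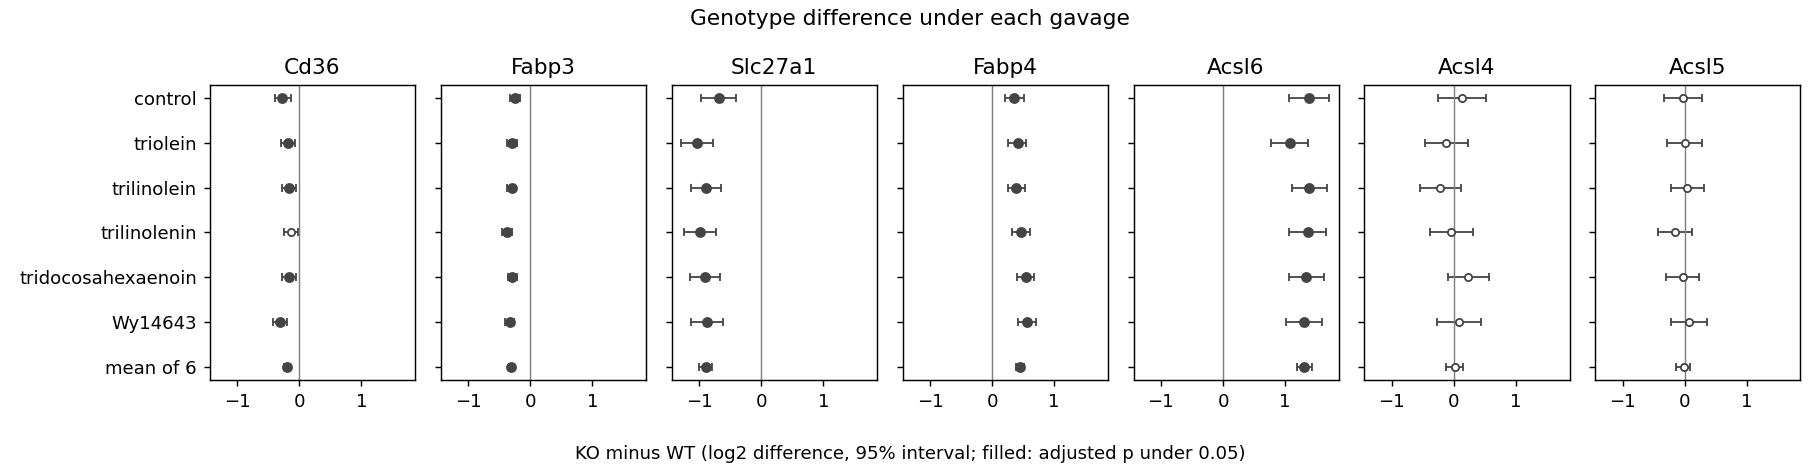
Knockout minus wild-type log2 difference of each gene under each of 6 gavages and averaged over them, with 95% intervals; filled points had an adjusted p under 0.05 in limma. Acsl6 stays between 1.07 and 1.39, Slc27a1 between -1.03 and -0.68, and the only open point among the 5 called genes is Cd36 under trilinolenin.

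Several genes were read by more than 1 probe set, and the sizes depended on which was used. For Fabp4 the 4 probe sets gave 0.45, 0.46, 1.01 and 1.22 for the difference averaged over gavages, all higher in knockout hearts, with 28, 23, 29 and 28 of 30 knockout arrays above every wild-type array. For Cd36 the 3 probe sets gave -0.2, -0.15 and -0.48. The last of these had all 30 knockout arrays (10.16 to 10.66) below all 25 wild-type arrays (10.84 to 11.14). Such separation was found for 0.996% of tested genes, read from the probe sets used for them. For Slc27a1 the pair gave -0.89 and -0.79, and the second of them overlapped widely, with 4 of 30 knockout arrays below every wild-type array. The second Fabp3 probe set, over the minimum on 3 arrays, gave -0.5, and the second Acsl6 probe set was over it on 0 arrays. When all probe sets of a gene were averaged, dim ones included, the Acsl6 difference fell from 1.38 to 0.79 in control hearts and from 1.31 to 0.75 over all gavages, and was still called. That of Fabp4 over all gavages went from 0.45 to 0.78. When the probe set with the widest spread stood for each gene, 2 of the 7 (Cd36 and Acsl6) were called in control hearts, and the adjusted p-values of Fabp4, Slc27a1 and Fabp3 became 0.294, 0.283 and 0.35.

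**Figure D3:**
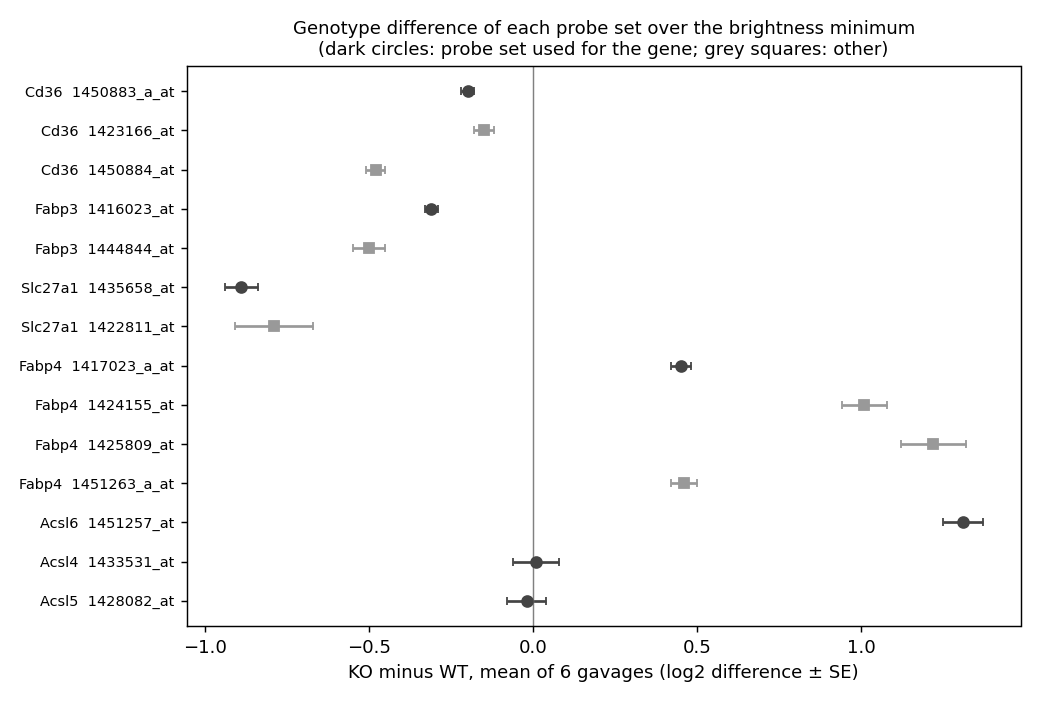
Knockout minus wild-type log2 difference averaged over 6 gavages (± SE), for each probe set that exceeded the brightness minimum on at least 3 arrays; dark circles are the probe sets used for the genes and grey squares the others. The probe sets of a gene share their sign, and those of Fabp4 range from 0.45 to 1.22.

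FABP4 is made by several cell types, and in whole hearts a change in the number of cells of a type and a change in RNA per cell cannot be told apart. In control hearts 0 of 9 capillary endothelial and 0 of 8 macrophage markers were called between genotypes. Their summed linear signals overlapped, at 2590 to 2630 in wild-type and 2410 to 2920 in knockout control hearts for endothelium, and 1890 to 1990 and 1850 to 2340 for macrophages. Averaged over gavages, where 22.8% of all tested genes were called higher and 16.1% lower, 6 of 8 macrophage markers were higher and 1 lower in knockout hearts. Of the 9 endothelial markers 2 were higher and 2 lower, a share near that of all genes. Of 7 adipocyte markers with a probe set, Retn, Lep, Cidec and Ucp1 were below the minimum on all 55 arrays, and Adipoq exceeded it on 1 array. The remaining 2, Pparg and Cidea, were measured on all arrays, and Cidea was lower in knockout control hearts. Averaged over gavages Cidea was lower and Pparg higher in knockout hearts. The summed linear signal of the adipocyte list was 302 to 344 in wild-type and 217 to 302 in knockout control hearts, and Cidea was its brightest member (mean log2 signal 7.76, against 5.88 for Pparg). The part of the macrophage and adipocyte markers in the Fabp4 difference was not tested.

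The next comparisons asked what each gavage did within a genotype. All wild-type comparisons with the control share the same 3 control arrays, and all knockout comparisons share the same 5. In wild-type hearts 1 of 35 combinations was called, Slc27a1 with trilinolenin. The share of all tested genes called was 0.0728% with triolein, 1.25% with trilinolein, 3.41% with trilinolenin, 1.86% with tridocosahexaenoin and 0.0607% with Wy14643.

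Slc27a1 measured 8.48, 8.33, 8.54 and 8.18 in wild-type trilinolenin hearts, all above the 3 control values. Groups without overlap were found for 16.6% of tested genes in that comparison. The log2 difference was 0.53 ± 0.14 (SE, adjusted p = 0.0273, limma), or 1.45-fold. Its differences with the other gavages were 0.39 with triolein, 0.45 with trilinolein, 0.26 with tridocosahexaenoin and 0.38 with Wy14643, with adjusted p-values of 0.612, 0.0938, 0.398 and 0.5. Wild-type control replicate 3, at 7.59, was the lowest of all 25 wild-type arrays. Without it the trilinolenin difference was 0.41 (adjusted p = 0.198). The Slc27a1 call was also lost without control replicate 2 (adjusted p = 0.0682) or without trilinolenin replicate 1 (0.0692) or 3 (0.087). Measures of RNA quality and of other muscle had shifted but overlapping ranges in these groups. The signal of Actb at its 3' end minus that at its 5' end was 0.47 to 0.72 in the trilinolenin and 0.7 to 0.87 in the control hearts. The summed linear signal of 5 smooth muscle markers was 1560 to 1980 and 1910 to 2540, and 1 of the 5, Myocd, was called lower. That of 4 atrial markers was 5940 to 15100 (median 13500) and 6380 to 9310 (median 9060), with 0 called. Their part in the Slc27a1 difference was not tested.

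Fabp4 in wild-type hearts given Wy14643 measured 12.98, 12.92, 12.99 and 13, all below the controls at 13.15 to 13.19. The log2 difference of -0.2 ± 0.08 was not called (SE, adjusted p = 0.534, limma), and groups without overlap were found for 7.71% of tested genes in that comparison. The other 3 Fabp4 probe sets differed by -0.11, -0.29 and -0.79, and their ranges overlapped those of the controls. Wild-type hearts given triolein, trilinolein or trilinolenin lay above the controls, at 13.2 to 13.4, 13.21 to 13.41 and 13.22 to 13.51, without a call. Groups without overlap were found there for 6.28%, 10.9% and 16.6% of tested genes. Hearts given tridocosahexaenoin, at 13.06 to 13.31, spanned the control values. The other 3 Fabp4 probe sets overlapped the controls with triolein and trilinolenin. With trilinolenin their means were 12.99, 8.62 and 8.17, against 12.77, 8.48 and 8.46 in controls. With trilinolein the brightest of them lay above the controls, at 12.9 to 13.18 against 12.65 to 12.89, and the rest overlapped. For Cd36 and Fabp3 in wild-type hearts, read from the probe sets used for the genes, no gavage moved the mean by more than 0.07. No 95% interval of these passed 0.17 in either direction. Fabp3 with Wy14643, at 13.67 to 13.71, still lay above the controls at 13.56 to 13.65. It was not called (adjusted p = 0.743, limma), and 7.71% of tested genes had groups without overlap in that comparison. The Cd36 probe set with the largest genotype difference measured 10.86 to 10.9 in controls. It measured 10.98 to 11.14 with trilinolein and 10.91 to 11.12 with trilinolenin, and its ranges with the other gavages overlapped the controls. Of all tested genes, 10.9% and 16.6% had groups without overlap with trilinolein and trilinolenin.

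In knockout hearts 1 of 35 combinations was called, Fabp4 with trilinolenin. The share of all tested genes called was 1.15% with triolein, 4.32% with trilinolein, 11.9% with trilinolenin, 3.54% with tridocosahexaenoin and 0.0728% with Wy14643. Fabp4 measured 13.81, 13.77, 13.82, 13.64 and 14.02 in knockout trilinolenin hearts, all above the controls at 13.47 to 13.62 (groups without overlap: 8.57% of tested genes). The log2 difference was 0.28 ± 0.07 (SE, adjusted p = 0.00459, limma), or 1.21-fold. Without trilinolenin replicate 5 it was 0.22 (adjusted p = 0.0328). In the full comparison of trilinolenin with control, 1 of 9 endothelial markers was called higher and 2 lower (Kdr, Emcn and Esam). Of 8 macrophage markers 1, Cd163, was called higher, against 11.9% of all tested genes called. The part of these markers in the Fabp4 difference was not tested. With triolein all 5 hearts (13.66 to 13.71) and with trilinolein all 5 (13.65 to 13.88) were also above the controls, with differences of 0.14 and 0.2 and adjusted p-values of 0.321 and 0.0791. Groups without overlap were found for 4.05% and 5.68% of tested genes. When all 4 Fabp4 probe sets were averaged, the differences with trilinolein, trilinolenin and tridocosahexaenoin were 0.39, 0.56 and 0.41, with adjusted p-values of 0.037, 0.000782 and 0.032. With tridocosahexaenoin the hearts measured 13.72, 13.61, 13.66, 13.6 and 14.13. Its difference was 0.21 (adjusted p = 0.0751), and 0.11 without replicate 5 (adjusted p = 0.456). With Wy14643 the difference was -0.01, with an interval of -0.14 to 0.13.

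Averaged over the 4 triglycerides, 2 of the 7 genes were called in knockout hearts, against 9.8% of all tested genes. Fabp4 was higher than in controls by 0.21 ± 0.05 (SE, adjusted p = 0.00939, limma) and Cd36 by 0.14 ± 0.04 (adjusted p = 0.0332). The control hearts measured 12.42 to 12.59 for Cd36 and the trilinolenin hearts 12.61 to 12.68, without overlap (groups without overlap: 8.57% of tested genes). The triolein, trilinolein and tridocosahexaenoin hearts overlapped the controls, at 12.5 to 12.71, 12.54 to 12.77 and 12.53 to 12.84. Without the 3 arrays of weight under 0.5, Fabp4 differed by 0.16 (adjusted p = 0.00741) and Cd36 by 0.12 (adjusted p = 0.0509). The Cd36 call was also lost without any 1 of knockout control replicates 2, 3, 4 and 5. In wild-type hearts 0 of the 7 genes were called for the same average, against 1.2% of all tested genes, and 1 (Slc27a1) had an unadjusted p under 0.05. Slc27a1 differed by 0.41 ± 0.12 (SE, adjusted p = 0.0641, limma) there and by 0.14 ± 0.09 (adjusted p = 0.381) in knockout hearts.

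The synthetases were not called after any gavage in either genotype. Acsl6 differed from the controls by -0.07 to 0.06 in wild-type hearts and at most by -0.24 with triolein in knockout hearts. Acsl4 had its largest difference in knockout hearts given trilinolenin, at 7.27, 6.88, 7.07, 7.2 and 6.06 against 6.91 to 7.56 in controls. Its log2 difference there was -0.34 (adjusted p = 0.182, limma), and the groups overlapped.

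Knockout trilinolenin replicate 5 and tridocosahexaenoin replicate 5 stood out for several genes, as seen after their values were known. They held the highest Fabp4 signals of all 55 arrays, 14.02 and 14.13, and the lowest Acsl5 signals, 5.16 and 5.14. The former also held the lowest Acsl4 signal, 6.06, and the latter the highest Cd36 signal of the knockout arrays, 12.84. Pparg, the PPAR of adipocytes, was highest in the same hearts, at 7.56 and 7.87 against a median of 5.77. Cidea, the other adipocyte marker measured on all arrays, was 7.13 and 7.6 there, below its median of 7.79. Adipoq measured 2.96 and 2.06 in these hearts, below the minimum. Pparg was called higher in knockout hearts with triolein, trilinolenin and tridocosahexaenoin, and its part in the Fabp4 difference was not tested.

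**Figure D4:**
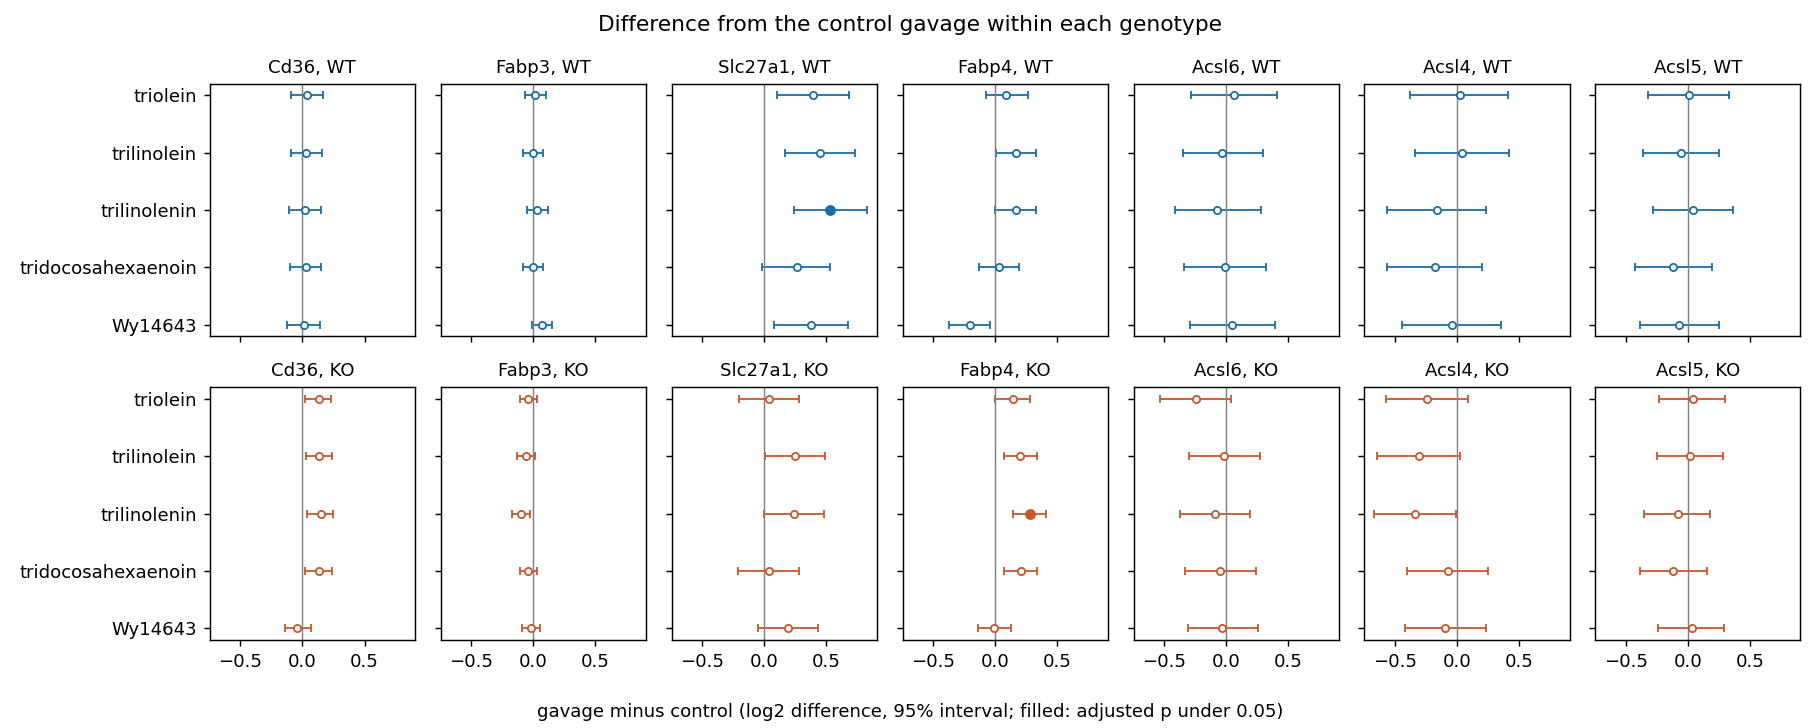
Gavage minus control log2 difference of each gene, with 95% intervals, in wild-type (top row, blue) and PPARα knockout hearts (bottom row, orange); filled points had an adjusted p under 0.05 in limma. The filled points are Slc27a1 with trilinolenin in wild-type hearts (0.53) and Fabp4 with trilinolenin in knockout hearts (0.28).

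Whether a gavage acted differently in the genotypes was tested with the interaction of gavage and genotype. It was called for 0 of the 7 genes and 0 of all 8237 tested genes (0%) with each of the 5 gavages and with the average of the triglycerides. Large interactions of PPAR targets with Wy14643 were thus not called either. These were -1.89 ± 0.6 for Angptl4 and -1.38 ± 0.42 for Ucp3 (SE, adjusted p = 0.794 and 0.64, limma). Before adjustment, 1 of the 35 combinations, Fabp3 with trilinolenin, was under the threshold of 0.05, as were 3.1% to 4.84% of all tested genes for the 5 gavages. Its log2 difference was -0.13 (adjusted p = 0.957, limma). Knockout hearts had measured 13.23, 13.26, 13.29, 13.31 and 13.29 for Fabp3 with trilinolenin, below all 5 controls, and wild-type hearts 13.62 to 13.69. Knockout trilinolenin and control groups did not overlap for 8.57% of tested genes. For Slc27a1 the interaction with trilinolenin was -0.3, with an interval of -0.68 to 0.08, and for Fabp4 it was 0.11, with an interval of -0.11 to 0.32. The response of Slc27a1 in wild-type hearts and that of Fabp4 in knockout hearts were therefore not shown to differ between genotypes.

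The 4 triglycerides were compared with each other at equal volume and time, in 6 pairs per genotype. Triolein, trilinolein and trilinolenin carry acids of one chain length with a rising number of double bonds, and tridocosahexaenoin carries a longer acid with still more of them. For the 7 genes 0 of 42 combinations were called in wild-type and 0 of 42 in knockout hearts. Of all tested genes, in wild-type hearts, trilinolein, trilinolenin and tridocosahexaenoin against triolein called 0.0364%, 0.522% and 0.534%. Trilinolenin against trilinolein called 0%, and tridocosahexaenoin called 0.765% against trilinolein and 0.558% against trilinolenin. In knockout hearts the same pairs called 0.413%, 1.01% and 0.0121%, then 0%, 0.388% and 0.328%. Unadjusted p-values under 0.05 were found for Fabp4 with tridocosahexaenoin against trilinolein and for Slc27a1 with tridocosahexaenoin against trilinolenin, both in wild-type hearts. The latter was the widest pair of Slc27a1, with a log2 difference of -0.28 and an interval of -0.53 to -0.02 (adjusted p = 0.419, limma). For Fabp4 in knockout hearts the widest pair was trilinolenin against triolein, at 0.13 (adjusted p = 0.378). Over all 6 pairs the intervals stayed within -0.15 and 0.13 for Cd36 and within -0.1 and 0.11 for Fabp3 in wild-type hearts. For Acsl6 in knockout hearts, the synthetase known for docosahexaenoic acid, they ran from -0.35 to 0.51.

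Other genes of uptake, trafficking and activation formed a list of 41, of which 36 had a probe set and 20 were tested. In control hearts 1 of the 20 was called, Vldlr, a receptor that takes up triglyceride-rich lipoproteins, which was lower in knockout hearts by a log2 difference of -0.3 ± 0.09 (SE, adjusted p = 0.0325, limma). Averaged over gavages 5 were higher and 5 lower, with a median of 0.0706 beside 0.0164 over all tested genes, of which 39% were called, so the count is near the background. The 4 largest of these differences were those of Pnpla2, the lipase that opens stored triglyceride (-0.37), Gpihbp1, which holds lipoprotein lipase on capillaries (0.34), the acyl-CoA binding protein Dbi (-0.32) and Acbd4 (0.28). In knockout hearts 2 of the 20 were called for the mean of the triglycerides, near the 9.8% of all tested genes. Gpihbp1 rose by 0.51 ± 0.1 on average (SE, adjusted p = 0.000433, limma), and Pnpla2 by 0.26 ± 0.09 (adjusted p = 0.0485). The list was called 0 times in wild-type hearts after any gavage.

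The genes with the most similar pattern over the 12 group means were sought among the other tested genes. The genes described here and names of clones or models were passed over. For Cd36 they were Cd9, Tmed5 and Fhl1 (r = 0.98, 0.96 and 0.943). For Fabp3 they were Lrrc39, Dhrs4 and Hsdl2 (0.993 each), and for Slc27a1 Rmc1, Npc1 and Elmod3 (0.983, 0.982 and 0.982). For Fabp4 they were Clu, Ginm1 and Ap3b1 (0.972, 0.97 and 0.964), and for Acsl6 Ndrg4, Pigo and Nrbp2 (0.994, 0.991 and 0.988). For Acsl4 they were Ppp1r14b, Arhgef7 and Dhrs7c (0.899, 0.873 and 0.871), and for Acsl5 Chmp7, Cnih1 and Epn2 (0.871, 0.86 and 0.855). Many genes reached such correlations. Among all 8236 other tested genes, 200 exceeded 0.9 for Fabp3, 192 for Acsl6 and 172 for Slc27a1. For Fabp4 these were 96 and for Cd36 26, but 0 for Acsl4 and Acsl5. Among the 7 genes, r over the 12 group means was 0.935 between Fabp3 and Slc27a1. With Acsl6 it was -0.974 for Fabp3 and -0.948 for Slc27a1. The step between genotypes enters every correlation of a gene called between them, so these values do not show a shared response to gavages. Within knockout hearts the mean of Fabp3 was 13.37 with control and 13.27 with trilinolenin, while that of Slc27a1 was 7.16 and 7.4.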

How the data were processed

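Total RNA of 55 mouse heart samples was measured on Affymetrix arrays. The deposited values are log2 signals that the authors made with GCRMA 2.2.0, per the submitters' processing notes, and they were used as deposited. GCRMA corrects background, equalises the distribution of the arrays and summarises probes into probe sets, so a shift of all genes together would not be seen. Of 45101 probe sets, 34958 carried 1 gene symbol in the platform annotation, 932 several and 9211 none, and those with 1 were used. Symbols were checked by Entrez identifier against the RefSeq gene table, which held 34754 of them and changed 0. The array's own control probe sets entered no test.

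One model with a mean for each of 12 groups was fitted in R 4.3.3 with limma 3.58.1 (lmFit, contrasts and eBayes, 43 residual and 3.255 prior degrees of freedom). The fit was tested on simulated data, with log2 changes added to 200 genes in each of 5 draws and all other genes left unchanged. Noise followed the residual SD of each gene, so the shares pool genes of small and large spread and do not describe a single gene. For knockout against wild-type controls, 22% of changes of 0.25 and 68.8% of changes of 0.5 were called. For trilinolenin against control these shares were 18% and 63.6% in wild-type and 25.6% and 72.4% in knockout hearts. Small changes can therefore be missed, and a gene not called is not shown to be unchanged. Array number limits the precision.

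The genes and lists were chosen with earlier results of these data known. Named are the 9 genes in every comparison, up to 4 called genes of largest difference per list and comparison, the PPAR targets Angptl4, Pdk4 and Ucp3 (Cpt1b was not tested) and the 3 genes most alike. Alternatives changed the brightness filter, the probe set, the normalization, the weights, the variance prior, the replicate block, the groups in the fit and the arrays, 1 at a time.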

Additional observations from a re-analysis of the deposited data

Results flagged for a closer look

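In 4 of 77 combinations of gene and group of 4 or more arrays, 1 array stood far from the others by Dixon's gap test, which chance does in about 1 in 20 groups. Fabp4 measured 14.13 in knockout tridocosahexaenoin replicate 5, with the others between 13.6 and 13.72, and 13.47 in knockout Wy14643 replicate 2, with the others between 13.54 and 13.55. Acsl5 measured 5.14 in knockout tridocosahexaenoin replicate 5, with the others between 5.69 and 5.83, and 5.51 in knockout Wy14643 replicate 3, with the others between 5.84 and 5.93. Tridocosahexaenoin replicate 5 had the lowest array weight, 0.472. Without it Acsl5 differed from the knockout controls by 0.01, in place of -0.12, and neither value was called.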

How the results depend on the processing

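No called difference of the 7 genes changed sign under any alternative run. The count of 5 called genes in control hearts became 2 with the probe set of widest spread and 3 with only the compared groups in the fit. The 1 wild-type gavage call became 0 with no brightness filter, with the mean of all probe sets, with the probe set of widest spread and with only the compared groups, and 2 with array weights. The 1 knockout gavage call became 3 with the filter at 100, with the mean of all probe sets, with array weights and with a trended robust prior, and 2 without the 3 arrays of weight under 0.5, an alternative chosen after seeing the data. The 2 calls for the mean of the triglycerides became 1 with no filter, 4 with array weights and 0 with only the compared groups. That fit has fewer arrays to estimate the spread, and the cause of the other shifts was not tested. Leaving out 1 array at a time gave 4 to 5 genes called in control hearts, 5 to 5 over all gavages, 23 to 24 calls within gavages, 0 to 1 wild-type and 1 to 3 knockout gavage calls, 0 to 0 interactions, 1 to 3 calls for the mean of the triglycerides and 0 to 0 for triglyceride pairs. With the replicate number as a block, the control comparison kept a count of 5 and Cd36 under triolein was lost (adjusted p = 0.0525, limma). The median correlations gave no sign that the numbers pair the arrays. Deviations of same-numbered arrays of different groups had a median of 0.000363 over 281 pairs, 62 of them over 0.1. For arrays of other numbers the median was -0.00868 over 1103 pairs, 208 of them over 0.1.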
